A study of Homo sapiens with 6 samples.

Results

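Cells make cholesterol and fatty acids from acetyl-CoA, and 33 genes of these pathways were followed in SW1736 cells under hypoxia. They are the rows of the mRNA table whose symbol equals a gene of a fixed list, 33 of the 20288 protein-coding transcripts in the table, and all 33 listed symbols were found. The list holds 18 genes of the sterol branch (7 of the mevalonate part and 11 from squalene to cholesterol), 9 genes of the fatty acid branch and 6 regulators and transporters, and 7 of the 33 encode enzymes that consume molecular oxygen. SW1736 is a human anaplastic thyroid cancer line, cultured at 21% O2 (normoxia, n = 3 libraries) or at 2% O2 (hypoxia, n = 3 libraries) for 72 h. No other treatment or allele separates the groups. Small RNA was sequenced with CATS, a method that tails RNAs with a free 3' hydroxyl end and needs no ligation, so a count for a gene is a count of short fragments of its transcript. The replicates are numbered, with no word on separate cultures, so a p-value here speaks of the spread of these 6 libraries of 1 cell line and may reflect technical spread alone.

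In the sterol branch, acetyl-CoA is built into mevalonate, isoprenoids and squalene, which is then oxidized, cyclized and trimmed to cholesterol. In the fatty acid branch, acetyl-CoA is carboxylated, joined into palmitate, and then elongated and desaturated. Both branches are driven by the SREBP transcription factors, which leave the endoplasmic reticulum with the escort protein SCAP when sterols are low and are held there by the INSIG proteins when sterols are high. Several steps, among them the epoxidation of squalene, the demethylation of lanosterol and the desaturation of fatty acids, use O2 as a substrate, and INSIG2 is known as a target of hypoxia-inducible factors in mouse liver.

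The libraries held 1469151 to 1781753 counts over the miRNA and mRNA tables. In each comparison, a normalized CPM is a count scaled to the size of its library (CPM) after TMM normalization, on the joined tables. The labels were checked against known hypoxia-responsive genes. Of 7 tested, all had a log2 fold change above 0, and edgeR called 6 higher (adjusted p under 0.05). These were CA9, NDRG1, BNIP3, PGK1, LDHA and miR-210-3p. For SLC2A1 the log2 fold change was 0.35 (edgeR's quasi-likelihood test, adjusted p = 0.443). Among markers of thyroid follicular cells, PAX8 had 170 to 261 counts per library and FOXE1 28 to 59, while TG and TSHR had at most 6, SLC5A5 at most 10 and NKX2-1 at most 11. VIM, of mesenchymal cells, had 5011 to 7633 counts and rose in hypoxia (log2 fold change 0.39, edgeR adjusted p = 0.0198). The other mesenchymal markers, FN1 with 22767 to 37805 counts and CDH2 with 326 to 454, were not called. Their log2 fold changes were 0.022 and 0.18 (edgeR adjusted p = 0.985 and 0.586). KRT8 and KRT18, of epithelia, had 26 to 66 counts, and EPCAM and CDH1 at most 6. PTPRC, of blood cells, had at most 9, ALB, of liver, at most 5 and CD68, of macrophages, 8 to 23, while COL1A1, a collagen, had 185 to 260. The part of such differences in the results was not tested. In bulk RNA, fewer cells with a transcript and fewer copies per cell cannot be told apart.

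None of the 33 genes passed the test of hypoxia against normoxia. Of the 31 that passed the filter on low counts, edgeR called 0 higher and 0 lower (adjusted p under 0.05). Of the 11082 mRNA features tested it called 0.758%, of which 0.596% of all were higher and 0.162% lower. At an unadjusted p under 0.05 there were 2, CYP51A1 and LSS, where 10.3% of mRNA features were. By DESeq2, 0 were called and CYP51A1 alone was under 0.05 unadjusted. Genes to which DESeq2 gave no adjusted p could not be called by it. They were MVK, PMVK, MVD, FDFT1, MSMO1, NSDHL, HSD17B7, EBP, DHCR7, SREBF1, SCAP, STARD4, ACSS2 and ACAT2. By limma-voom 0 of the 31 were called, and CYP51A1 and LSS were under 0.05 unadjusted. The log2 fold changes, hypoxia over normoxia, ran from -0.68 for SCAP to 0.50 for MVD, with 16 above 0 and 15 below. Their median was 0.024, and that of all mRNA features tested was -0.006. Groups that did not overlap were found for 3 higher genes (CYP51A1, LSS and INSIG2) and 2 lower ones (HSD17B7 and ACLY), where 8.27% of mRNA features were higher without overlap and 7.01% lower. The filter removed FADS2, with 4 to 9 counts per library, and TM7SF2, with 6 to 12. Tested without a filter, their log2 fold changes were 0.28 for FADS2 and -0.21 for TM7SF2 (edgeR adjusted p = 0.948 for both).

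**Figure D1:**
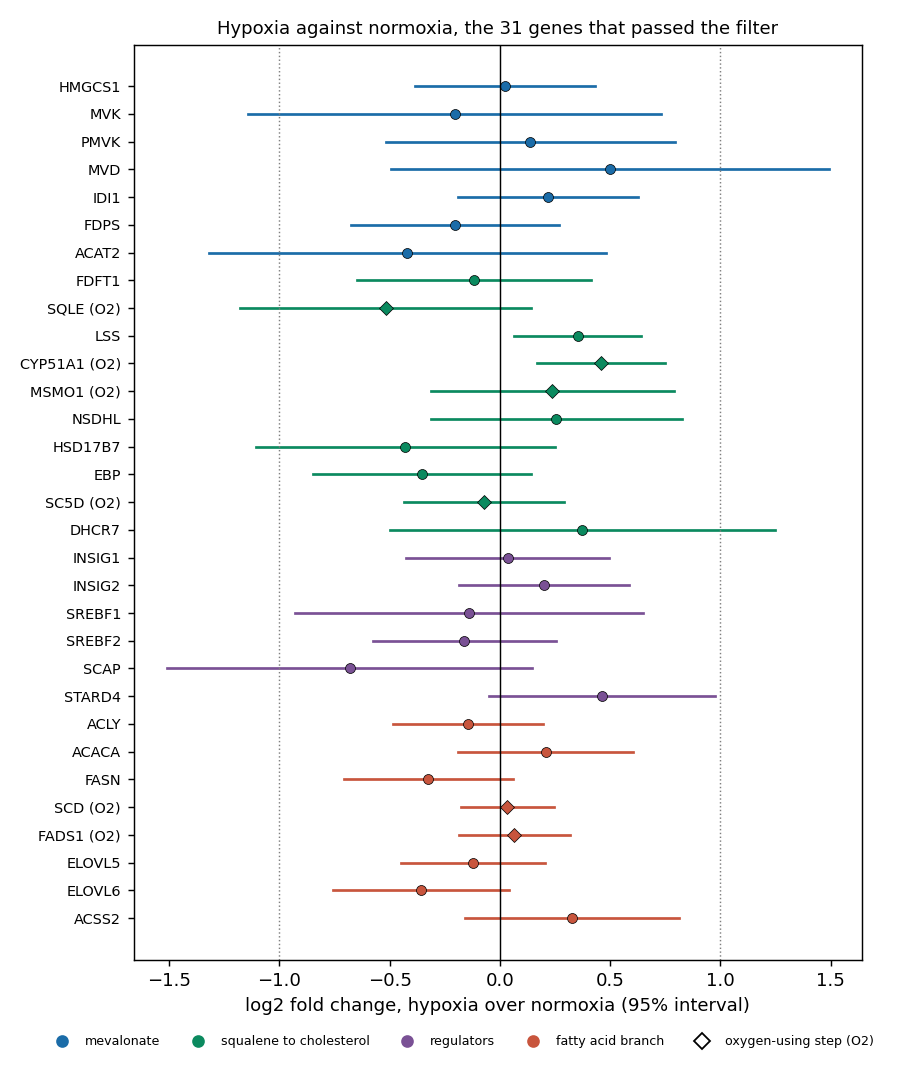
Log2 fold change of hypoxia over normoxia for the 31 genes that passed the filter (points) with 95% intervals (lines) from edgeR, by gene group. Diamonds are oxygen-using steps and dotted lines mark a 2-fold change. The intervals of CYP51A1 and LSS lie above 0 and all others include 0.

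The 2 genes with the lowest p-values, singled out for those values and not called, encode consecutive enzymes of sterol synthesis. SQLE, whose enzyme acts just before that of LSS, had a log2 fold change of -0.52. LSS, lanosterol synthase, closes the ring system of lanosterol from oxidosqualene, and CYP51A1, lanosterol 14-alpha-demethylase, then removes a methyl group in a reaction that uses O2. CYP51A1 had 62.8, 73.3 and 64.1 normalized CPM in the normoxic libraries (replicates 1, 2 and 3, the order used throughout) and 84.0, 92.8 and 98.7 in the hypoxic ones. Every hypoxic library was above every normoxic one. The means were 66.7 ± 5.68 and 91.8 ± 7.40 (SD, n = 3 each). This was a log2 fold change of 0.46 (standard error 0.143, 95% interval 0.17 to 0.75, edgeR adjusted p = 0.145). With 1 library left out it ran from 0.41 to 0.53 and stayed short of the threshold (edgeR adjusted p from 0.113 to 0.437).

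LSS, named here because of its unadjusted p, had 64.8, 71.3 and 87.6 normalized CPM in normoxia and 96.2, 99.7 and 89.6 in hypoxia. The groups did not overlap, but the highest normoxic library, replicate 3, lay close to the lowest hypoxic one, replicate 3. The log2 fold change was 0.35 (standard error 0.143, 95% interval 0.06 to 0.64, edgeR adjusted p = 0.329). In GRCh38 with GENCODE 44, CYP51A1 lies at chr7:92084987-92134803 and LSS at chr21:46188141-46228824, both on the minus strand. Exons of CYP51A1 overlap those of AKAP9 on the opposite strand and of 2 genes on the same strand that have an identifier only, and GENCODE names 3 pseudogenes after it. Whether counting used the strand is not given in the sources used here, so fragments of such neighbours and copies may be among its counts.

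For both genes and for SREBF2, the master regulator of the sterol branch, the 250 bases before the RefSeq start are given here, since the 3 windows differ in the boxes that SREBP and its partner NF-Y are known to use. Capitals mark the sterol regulatory element core (searched as TCACNCCAC) and the NF-Y box (searched as CCAAT), on either strand, so that a box on the opposite strand reads ATTGG. The windows are from RefSeq, GRCh38.p14, 5' to 3' on the strand of the gene, at chr7:92134478-92134727 (minus) for CYP51A1, chr21:46228775-46229024 (minus) for LSS and chr22:41832855-41833104 (plus) for SREBF2.
CYP51A1: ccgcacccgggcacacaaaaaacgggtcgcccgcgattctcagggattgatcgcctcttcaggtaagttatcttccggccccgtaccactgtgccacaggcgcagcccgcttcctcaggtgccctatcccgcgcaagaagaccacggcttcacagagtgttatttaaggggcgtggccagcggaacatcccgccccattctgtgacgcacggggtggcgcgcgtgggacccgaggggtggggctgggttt
LSS: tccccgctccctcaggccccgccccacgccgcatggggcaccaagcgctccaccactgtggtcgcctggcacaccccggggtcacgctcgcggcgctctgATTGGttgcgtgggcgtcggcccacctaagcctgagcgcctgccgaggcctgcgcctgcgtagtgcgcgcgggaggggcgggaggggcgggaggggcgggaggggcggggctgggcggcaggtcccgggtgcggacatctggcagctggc
SREBF2: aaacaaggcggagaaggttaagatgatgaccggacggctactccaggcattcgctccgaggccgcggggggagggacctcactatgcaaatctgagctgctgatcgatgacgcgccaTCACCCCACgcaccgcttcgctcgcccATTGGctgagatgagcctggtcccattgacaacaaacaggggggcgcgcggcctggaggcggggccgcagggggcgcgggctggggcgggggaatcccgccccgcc

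The window of SREBF2 holds a sterol regulatory element core that begins 133 bases before the start and an NF-Y box 106 bases before it, that of LSS an NF-Y box 150 bases before the start, and that of CYP51A1 neither. Promoters of 29 of the 33 genes were in the RefSeq table. An NF-Y box was in 12 of 15 sterol branch promoters (80.0%), in 4 of 8 of the fatty acid branch and in 3 of 6 of the regulators, against 33% of all 27305 promoters in the table and 35.4% of the 8589 of genes that passed the filter. SREBF2 alone of the 29 held the sterol regulatory element core, which 0.875% of all promoters hold. The core of the hypoxia response element (searched as ACGTG) was in 7 of the 29, those of SC5D, INSIG1, INSIG2, SCAP, STARD4, ELOVL5 and ELOVL6, in 18.7% of all promoters and in 23.9% of those of genes that passed the filter. The share of the 29, 24.1%, lay next to the latter, but the matches were spread unevenly. They were in 4 of 6 regulators, 1 of 15 of the sterol branch and 2 of 8 of the fatty acid branch, which was not tested. The E-box (searched as CACGTG, which contains the previous core) was in 4 of the 29, those of SC5D, INSIG1, SCAP and ELOVL5, in 6.49% of all promoters and in 9.03% of those of genes that passed the filter. These are matches of letters in a short window, and a missing match depends on the start used and on the exact letters searched. By GENCODE positions the CYP51A1 window lies inside the gene, which ends at 92134803, and the LSS window overlaps its gene, which ends at 46228824. The SREBF2 window lies just outside its gene, which starts at 41833105.

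The oxygen-using steps lay on both sides of 0, and none passed the test. Of 6 tested, 4 had a log2 fold change above 0 and 2 below, with a median of 0.049. SQLE, squalene epoxidase, a rate-limiting enzyme of the sterol branch and the first of it to use O2, had 22.03, 49.5 and 31.1 normalized CPM in normoxia and 13.5, 24.8 and 34.0 in hypoxia. The highest library was normoxia replicate 2 and the lowest hypoxia replicate 1, and the groups overlapped. Its log2 fold change was -0.52 (standard error 0.313, 95% interval -1.18 to 0.14, edgeR adjusted p = 0.615), on the opposite side of 0 from CYP51A1, and was -0.16 at its weakest and -0.83 at its strongest with 1 library left out. The difference between these 2 genes was not tested.

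MSMO1, the methylsterol monooxygenase that removes methyl groups at carbon 4 of the sterol ring, had 20.1, 26.4 and 13.3 normalized CPM in normoxia and 20.8, 18.4 and 32.0 in hypoxia. Its lowest library was normoxic and its highest hypoxic, and the others mixed (log2 fold change of 0.24, 95% interval -0.31 to 0.79, edgeR adjusted p = 0.824). SC5D, the lathosterol oxidase, varied little, with 43.4, 45.6 and 46.4 normalized CPM in normoxia and 44.7, 39.8 and 44.5 in hypoxia. The 95% interval of its fold change ran from 0.739 to 1.22 (edgeR adjusted p = 0.937).

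SCD, stearoyl-CoA desaturase, which places the double bond of oleate, had the highest counts of the 33 genes. It had 387, 430.0 and 368 normalized CPM in normoxia and 402, 354 and 459 in hypoxia. Hypoxia replicate 2 was the lowest of the 6 libraries and hypoxia replicate 3 the highest. The fold change was 1.02 with a 95% interval of 0.884 to 1.18 (edgeR adjusted p = 0.956).

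FADS1, the delta-5 desaturase of polyunsaturated fatty acids, had 111, 109 and 105 normalized CPM in normoxia and 108, 111 and 121 in hypoxia, with a fold change of 1.05 (95% interval 0.878 to 1.24, edgeR adjusted p = 0.909). Hypoxia replicate 3 was the highest, and the other libraries lay within 105 to 111. FADS2, the delta-6 desaturase of the same locus, had 3.24, 2.57 and 4.44 normalized CPM in normoxia and 3.68, 2.88 and 6.25 in hypoxia, too few counts to compare. Exons of FADS1 and FADS2 overlap on opposite strands.

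**Figure D2:**
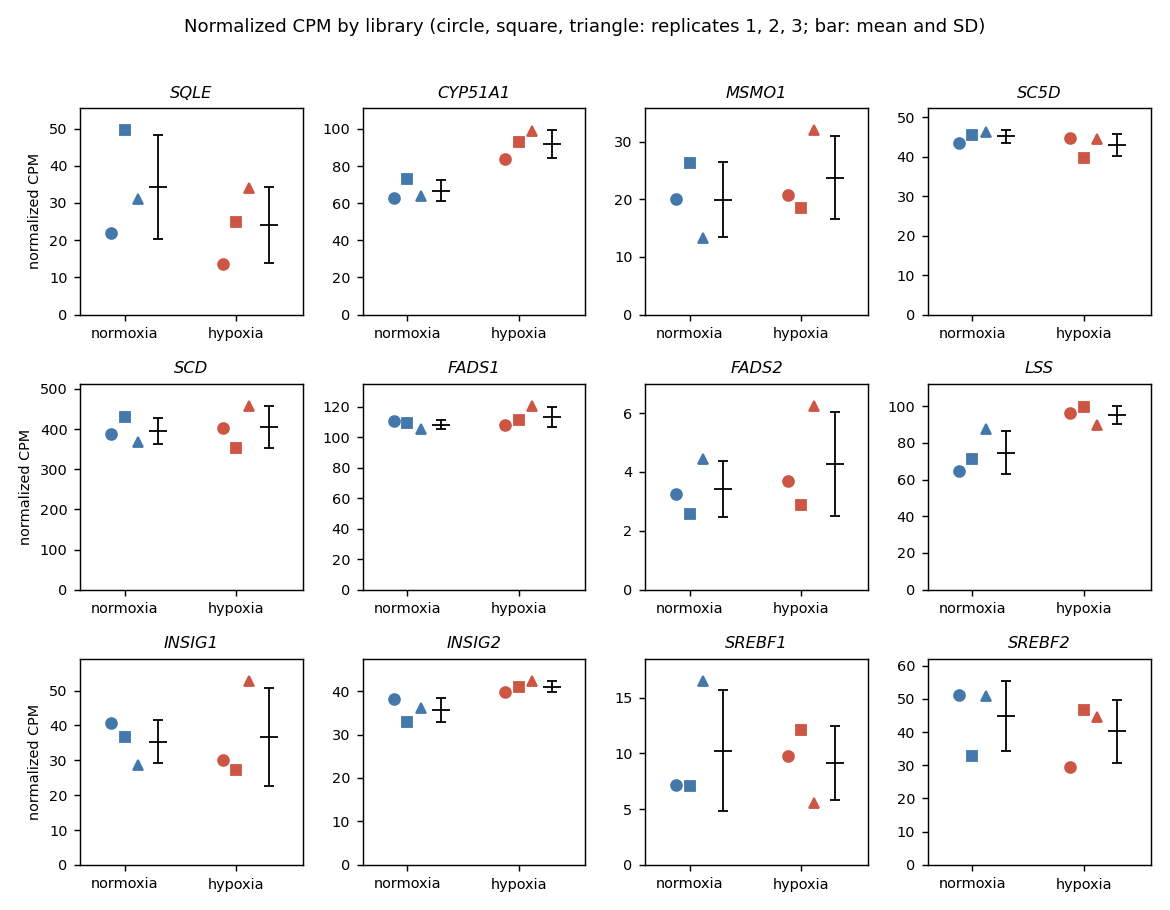
Normalized CPM (vertical axis, from 0) of 12 genes in each normoxic (blue) and hypoxic (red) library, with circles, squares and triangles for replicates 1, 2 and 3 and bars for the mean and SD of each group. The groups do not overlap for CYP51A1, LSS and INSIG2 and overlap for the other 9.

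Among the enzymes of the mevalonate part, all 7 overlapped between groups and the lowest adjusted p was 0.764 from edgeR. Their median log2 fold change was 0.024, with 4 above 0 and 3 below. IDI1, the isopentenyl diphosphate isomerase, had the largest value of those with at least 20 counts per library on average. It had 32.4, 57.2 and 33.7 normalized CPM in normoxia and 49.0, 42.7 and 52.1 in hypoxia, a log2 fold change of 0.22 (95% interval -0.19 to 0.62). Normoxia replicate 2 was the highest of all 6, and without it the log2 fold change was 0.53, while without normoxia replicate 1 it was 0.076. ACAT2, the cytosolic thiolase that joins acetyl-CoA units, had the smallest, with 24.6, 42.4 and 15.9 normalized CPM in normoxia and 12.9, 16.1 and 34.0 in hypoxia (log2 fold change of -0.42, 95% interval -1.32 to 0.48). Within each group its libraries differed more than the groups did, and without normoxia replicate 2 the log2 fold change was 0.028. Exons of ACAT2 overlap those of SOD2 and TCP1 on the opposite strand, so fragments of these genes may be among its counts. HMGCS1, which makes HMG-CoA, had a log2 fold change of 0.024 with a fold interval of 0.766 to 1.35. MVK, PMVK and MVD, which turn mevalonate into isopentenyl diphosphate, had 4 to 24 counts per library, too few for a narrow interval. FDPS, which makes farnesyl diphosphate, had a log2 fold change of -0.20, and GENCODE names 8 pseudogenes after it.

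From squalene to cholesterol, 10 of 11 genes were tested, with 5 log2 fold changes above 0 and 5 below and a median of 0.083. Besides SQLE, LSS, CYP51A1, MSMO1 and SC5D, the values were -0.12 for FDFT1, the squalene synthase, 0.26 for NSDHL and -0.43 for HSD17B7, a pair of enzymes of carbon 4 demethylation, -0.35 for EBP, a sterol isomerase, and 0.37 for DHCR7, which reduces 7-dehydrocholesterol to cholesterol. HSD17B7 was lower in hypoxia without overlap, at 14.3, 14.1 and 14.0 normalized CPM in normoxia and 12.9, 5.76 and 13.2 in hypoxia. Hypoxia replicate 2 alone carried most of that difference, on 10 to 22 counts per library (edgeR adjusted p = 0.715).

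Among the 6 sensors, regulators and transporters, 3 log2 fold changes lay above 0 and 3 below, and none passed the test. INSIG2 had 38.2, 32.8 and 36.2 normalized CPM in normoxia and 39.8, 40.9 and 42.4 in hypoxia. All 3 hypoxic libraries were above the normoxic ones by a narrow margin, with a log2 fold change of 0.20 (95% interval -0.19 to 0.59, edgeR adjusted p = 0.774). INSIG1, the other retention protein and itself an SREBP target, had 40.8, 36.6 and 28.6 normalized CPM in normoxia and 30.0, 27.1 and 52.8 in hypoxia. Hypoxia replicate 3 was the highest library and hypoxia replicate 2 the lowest, and the normoxic libraries lay between them. Its log2 fold change of 0.035 turned to -0.023 by limma-voom and to -0.31 without hypoxia replicate 3.

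SREBF1, which encodes the SREBP1 isoforms that favour the fatty acid branch, had 7.13, 7.07 and 16.5 normalized CPM in normoxia and 9.81, 12.1 and 5.56 in hypoxia, on 8 to 26 counts. SREBF2, which encodes SREBP2 and favours the sterol branch, had 51.2, 32.8 and 50.8 in normoxia and 29.4, 46.7 and 44.5 in hypoxia. In both genes the groups overlapped, with log2 fold changes of -0.14 (95% interval -0.93 to 0.65) and -0.16 (95% interval -0.58 to 0.25). STARD4, a cytosolic sterol transporter, had 19.4, 23.1 and 15.9 normalized CPM in normoxia and 25.7, 34.0 and 20.2 in hypoxia. Hypoxia replicate 3 lay among the normoxic libraries and the other hypoxic ones lay above them (log2 fold change of 0.46, 95% interval -0.05 to 0.98, edgeR adjusted p = 0.55). SCAP had 5 to 21 counts per library and a log2 fold change of -0.68 (95% interval -1.51 to 0.15, edgeR adjusted p = 0.599).

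In the fatty acid branch, 4 of the 8 genes tested had a log2 fold change above 0 and 4 below, with a median of -0.045. ACSS2, which makes acetyl-CoA from acetate and is known for its role in hypoxic tumor cells, had the largest value, with 27.2, 17.4 and 27.3 normalized CPM in normoxia and 23.3, 37.5 and 29.2 in hypoxia. The lowest library was normoxia replicate 2 and the highest hypoxia replicate 2, and the rest mixed (log2 fold change of 0.33, 95% interval -0.16 to 0.81, edgeR adjusted p = 0.691). The log2 fold change was 0.12 without hypoxia replicate 2 and 0.14 without normoxia replicate 2. ELOVL6, which elongates palmitate, had the smallest, with 47.9, 38.6 and 47.6 normalized CPM in normoxia and 28.2, 41.5 and 34.7 in hypoxia. Hypoxia replicate 2 lay above normoxia replicate 2, so the groups overlapped (log2 fold change of -0.36, 95% interval -0.76 to 0.04, edgeR adjusted p = 0.553).

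ACLY, which releases acetyl-CoA from citrate, was lower in hypoxia without overlap, at 53.7 ± 2.81 normalized CPM in normoxic and 48.6 ± 2.16 in hypoxic libraries (SD, n = 3 each; log2 fold change of -0.15, edgeR adjusted p = 0.829). ACACA, acetyl-CoA carboxylase, and FASN, fatty acid synthase, lay on opposite sides of 0, at 0.21 and -0.32, and ELOVL5, an elongase of polyunsaturated fatty acids, was at -0.12.

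The 95% intervals show what sizes of change were within reach. For 24 of the 31 genes tested the whole interval lay within 2-fold in either direction. These were all 8 of the fatty acid branch, 11 of 17 of the sterol branch and 5 of 6 regulators, and among the oxygen-using steps all those tested but SQLE. For 8 genes it lay within 1.5-fold: HMGCS1, SC5D, INSIG1, SREBF2, ACLY, SCD, FADS1 and ELOVL5. The edgeR intervals draw on the spread of all features fitted, not on that of each gene alone. Within groups the variance of HMGCS1, INSIG1, SREBF2 and SCD was 5.63, 5.06, 3.72 and 7.33 times that of counting alone. For these genes the limit of 1.5-fold is less certain. For SC5D, ACLY, FADS1 and ELOVL5 the variance was 0.192, 0.193, 0.339 and 0.335 times that of counting. The 7 genes with intervals that reached past 2-fold were MVK, MVD, ACAT2, SQLE, HSD17B7, DHCR7 and SCAP.

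Sterol branch genes differed between libraries of the same condition, and many did so in the same libraries. Normoxia replicate 2 was the highest of the 3 normoxic libraries for 13 of 18 sterol branch genes, among them SQLE, IDI1, FDPS and ACAT2, against 35.7% of all mRNA features tested. It was so for 3 of 9 fatty acid branch genes and 2 of 6 regulators. In hypoxia, replicate 3 was the highest of the 3 for 11 of 18 (61.1%), against 35.4% of all mRNA features. For the fatty acid branch this was 5 of 9 (55.6%), so genes outside the sterol branch were also highest in this library. For the regulators it was 2 of 6 (33.3%). Both held at once for 9 of 18 sterol branch genes, MVK, MVD, IDI1, FDPS, ACAT2, SQLE, CYP51A1, MSMO1 and EBP, against 14.7% of all mRNA features, and for 2 of 9 of the fatty acid branch. PMVK, LSS and SC5D followed neither. This pattern was noticed in these data and not tested, and genes of 1 library are not independent of each other.

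The summed level of the sterol branch was 470.4, 617 and 455 normalized CPM in normoxia and 495, 521 and 613 in hypoxia, or 514 ± 89.3 and 543 ± 61.9 (SD, n = 3 each). The highest normoxic library lay above every hypoxic one. That of the fatty acid branch was 775, 814 and 753 in normoxia and 748, 751 and 837 in hypoxia, or 781 ± 31.02 and 779 ± 50.9, to which SCD gave 354 to 459. The difference between conditions was smaller than the SD within them in both branches. The median log2 fold change of the sterol branch was 0.21 without normoxia replicate 2 and -0.095 without hypoxia replicate 3, so its sign rested on single libraries.

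**Figure D3:**
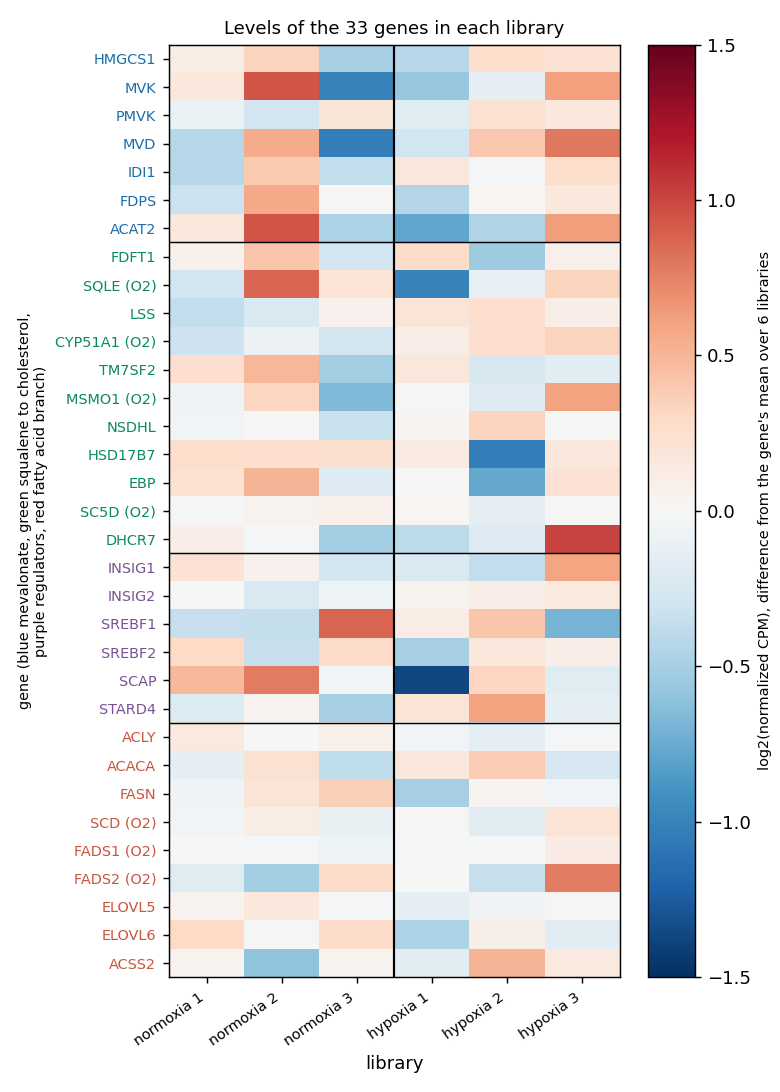
Level of the 33 genes in each of the 6 libraries, as the difference of log2 normalized CPM from the mean of the gene over the libraries (colour). Genes are in pathway order and (O2) marks oxygen-using steps. In the sterol branch, normoxia replicate 2 is the highest normoxic library for 13 of 18 genes and hypoxia replicate 3 the highest hypoxic one for 11.

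**Figure D4:**
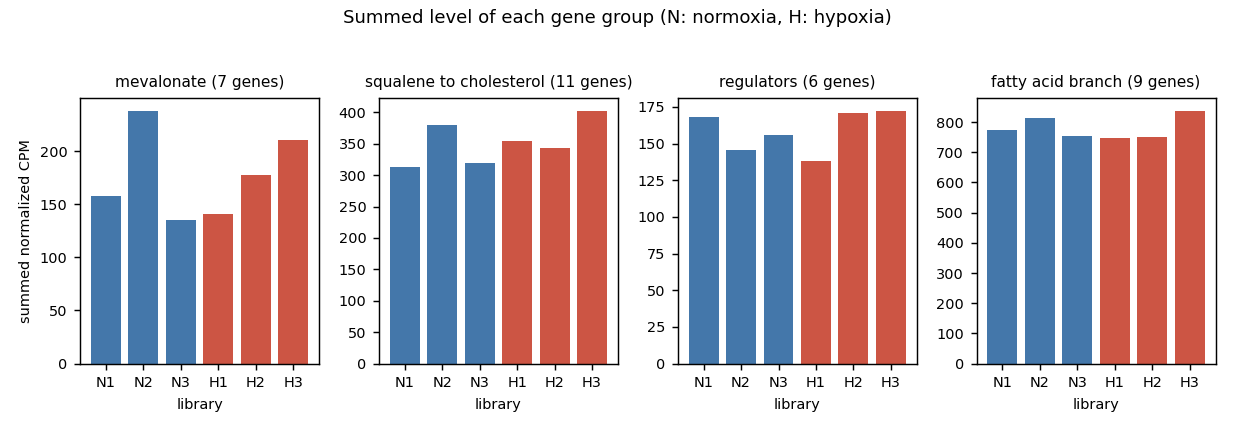
Summed normalized CPM of each gene group in each library (bars, from 0), with normoxia in blue and hypoxia in red. Normoxia replicate 2 stands highest for the mevalonate part, at 238, and hypoxia replicate 3 is next, at 211.

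The spread between libraries of a group was set against what counting alone would give. For the genes of the sterol branch the variance within groups was 2.46 times the counting variance in the median. It was 1.40 times for the 8722 mRNA features between the lowest and highest mean count of these genes. Such a wide range does not match features to genes by count, so the gap may in part reflect counts. The mevalonate part stood at 3.50 (against 1.37) and the regulators at 2.62 (against 1.39). The fatty acid branch, at 1.75 (against 1.67), lay close to its comparison features. ACAT2 had the highest ratio, 9.99, and SQLE had 7.88. SCD had 7.33, on the highest counts of the 33 genes, while CYP51A1 was at 0.839 and SC5D, ACLY and INSIG2 were below 0.2. These ratios are descriptions, with 3 libraries behind each group.

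Per kilobase of transcript, SCD stood highest, at 74.6 normalized CPM per kilobase over the 6 libraries. CYP51A1 and FADS1 followed at 24.7 and 24.5, then FDPS at 20.8, ELOVL5 at 18.5, SC5D at 17.9 and LSS at 17.2. By condition, CYP51A1 stood at 20.8 in normoxia, below FADS1 (24.0) and FDPS (22.3), and at 28.6 in hypoxia, above FADS1 (25.1) and FDPS (19.4). At the low end were MVK (2.57), SREBF1 (2.08), SCAP (1.97) and FADS2 (1.06). SREBF2 stood at 7.47 and INSIG2 and INSIG1 at 14.8 and 12.0. These levels are of short fragments, so they need not match the abundance of whole mRNAs. The lengths are those of whole transcripts, while reads of non-coding parts of mRNAs were left out by the authors, so genes with long non-coding parts are understated in this order.

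Both SREBP genes carry a miRNA of the miR-33 family in an intron, known to act on cholesterol efflux and fatty acid oxidation. MIR33A lies at chr22:41900944-41901012 on the plus strand of GRCh38, in intron 19 of the SREBF2 transcript counted, and MIR33B at chr17:17813836-17813931 on the minus strand, in intron 15 of that of SREBF1. Their 5p strands, from RefSeq, are shown because they share the seed, bases 2 to 8, in capitals.
miR-33a-5p: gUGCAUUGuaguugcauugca
miR-33b-5p: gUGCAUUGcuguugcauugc

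Neither 5p strand had a count in any of the 6 libraries, which allows up to 3 counts per library, or 1.73 to 2.08 normalized CPM. The 3p strands had 11 counts in all for miR-33a-3p and 5 for miR-33b-3p. Of other miRNAs reported to act on this pathway, miR-185-5p had 71.3, 76.5 and 81.9 normalized CPM in normoxia and 88.9, 88.2 and 77.1 in hypoxia. Hypoxia replicate 3 lay among the normoxic libraries (log2 fold change of 0.15, edgeR adjusted p = 0.77). miR-183-5p and miR-182-5p had log2 fold changes of 0.12 and 0.57 (adjusted p = 0.866 and 0.693 from edgeR), and miR-96-5p and miR-122-5p had 8 and 2 counts in all.

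Other genes of the same pathways gave a like picture. Of 28 further synthesis genes, 22 were tested, 0 were called, 11 lay above 0 and 11 below, and 2 were under 0.05 unadjusted by edgeR, as by DESeq2 and limma-voom, which also called 0. By all 3 tools these were TECR, the last reductase of very long chain fatty acid elongation, at -0.80 (edgeR adjusted p = 0.237), and ME1, the malic enzyme that supplies NADPH, at -0.75 (edgeR adjusted p = 0.313). Of 10 genes of sterol efflux, storage and the LXR receptors, 6 were tested and 0 called by edgeR, DESeq2 or limma-voom, with 1, NPC1, under 0.05 unadjusted by each. NPC1, which exports cholesterol from lysosomes, had 13.0, 8.998 and 25.4 normalized CPM in normoxia and 32.5, 27.7 and 25.0 in hypoxia. Normoxia replicate 3 lay within the range of hypoxia (log2 fold change of 0.84, 95% interval 0.27 to 1.42, edgeR adjusted p = 0.185). ABCA1, the main exporter of cholesterol to lipoproteins, had a log2 fold change of 0.10.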

How the data were processed

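Small RNA from SW1736 cells in normoxia and hypoxia (3 libraries each) was analysed from 2 tables. Per the study's methods, the authors trimmed adapters with Cutadapt and dropped reads that matched housekeeping RNA classes. What was left was mapped first to miRBase, then to protein-coding GENCODE transcripts. The deposited values are raw read counts, made with eXpress, with 1 transcript per gene. Reads of minor transcripts, pseudogenes and non-coding parts of mRNAs were left out by the authors, which limits counts of genes with close copies. The submitters' notes name hg38. Bowtie and Bowtie2 are named there without versions.

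Both tables were joined, filtered with filterByExpr, scaled by TMM and fitted with edgeR 4.0.16 (robust quasi-likelihood test, R 4.3.3), with Benjamini-Hochberg adjustment over 11276 features and a threshold of 0.05. Fits with limma 3.58.1 (voom) and DESeq2 1.42.0, other scaling, no filter, the mRNA table alone, a replicate block and each library left out were alternatives. The non-robust fit was added after seeing the data. Scripts were tested on simulated data. Values in every library are given for genes with the largest and smallest log2 fold change of each group with a mean of at least 20 counts, the 7 oxygen-using steps, INSIG1, INSIG2, SREBF1 and SREBF2. Others that are singled out, such as LSS, HSD17B7, ACLY and NPC1, were chosen after their values were seen. The members and lists were chosen with earlier results of these data known. Columns of other kinds were transcript lengths only. Gene positions are from GENCODE 44 and sequences from RefSeq. Intervals and floors cover the spread of libraries or counting error only.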

Additional observations from a re-analysis of the deposited data

How the results depend on the processing

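None of the 33 genes was called in any of the 13 alternatives, and the lowest adjusted p among them ran from 0.113 to 0.437. In the DESeq2 fit several genes, MVK and ACAT2 among them, had no adjusted p and could not be called. CYP51A1 kept an unadjusted p under 0.05 in 13 of 13 alternatives and LSS in 10 of 13, both higher in hypoxia, and SQLE, lower in hypoxia, reached it in 4 of 13. CYP51A1 and LSS were singled out for their low p-values, and the alternatives reuse the same libraries. These counts are therefore no separate evidence of a change. With 1 library left out, 20 of 31 genes kept their direction in all 6 fits and 11 did not. For those 11 the log2 fold changes ran from -0.18 to 0.21 for HMGCS1, -0.57 to 0.33 for MVK, -0.39 to 0.067 for FDPS, -0.30 to 0.090 for FDFT1, -0.019 to 0.49 for MSMO1, -0.16 to 0.62 for DHCR7, -0.31 to 0.21 for INSIG1, -0.40 to 0.38 for SREBF1, -0.34 to 0.019 for SREBF2, -0.063 to 0.12 for SCD and -0.92 to 0.028 for ACAT2. Outside these fits only INSIG1 changed sign (-0.023 by limma-voom). The median of the fatty acid branch, -0.045, ran from -0.11 to -0.0028. Over all features, 70 were called higher and 19 lower. DESeq2 called 40 higher and 8 lower, limma-voom 11 lower, and the fit with no filter 45 lower. With 1 library left out, 27 to 84 were higher and 3 to 39 lower. The causes were not tested. With the replicate number as a block, 64 were higher and 15 lower and no member was called. Deviations from the group means had correlations of -0.004, 0.003 and -0.095 between libraries of the same number. Between libraries of different numbers they ran from -0.083 to 0.089. These values showed no pairing by number, but they cannot tell whether same-numbered libraries were prepared together. The 95% intervals of 7 genes reached past 2-fold, and 5 of these 7 (MVK, MVD, HSD17B7, DHCR7 and SCAP) had under 20 counts per library on average, which limits what this depth can show for them.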
